A study of Mus musculus with 2 samples.

Results

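Gas6, Pros1, Mfge8, Axl, Mertk and Tyro3 form the gene group described here, chosen by symbol from the 24984 gene symbols measured, so 6 of 24984. The 3 first genes encode secreted bridging proteins and the 3 last encode receptors. Dying cells turn phosphatidylserine, a lipid of the inner membrane leaflet, to their surface. Gas6 and Pros1 (protein S) bind both this lipid and TAM receptors (Tyro3, Axl, Mertk), which lets a phagocyte engulf the dying cell, a process named efferocytosis, and dampens inflammatory signalling in it. Mfge8 bridges the same lipid to integrins. Regenerating and dystrophic muscle holds many dying fibers and infiltrating macrophages, and clearance of debris by macrophages is known to go along with their turn from an inflammatory to a repair state.

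The data are single cell RNA-seq of hind limb muscle, from which live mononuclear cells had been sorted. All mice carried the mdx mutation, which removes dystrophin, together with Pax7 CreERT2/R26YFP, and per the study's methods all received tamoxifen, although the label of the Ctrl sample gives no treatment. Ctrl mice were Yy1 +/+ and dKO mice were Yy1 f/f, so that Cre driven from the Pax7 locus deleted Yy1, the gene of a transcription factor, in muscle stem cells (MuSCs) and their progeny. Every other cell type kept Yy1, and a difference in those cells between Ctrl and dKO concerns cells that were not the target of the deletion. The cells of several mice were pooled into 1 library per group, collected a month after tamoxifen.

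With 1 library per group there was no replicate, and no difference in what follows has a replicate check or a p-value. UMIs (unique molecular identifiers, each counting 1 captured RNA molecule) were summed over the cells of a class and divided by the class total, giving CPM (UMIs per 1000000 UMIs of the class). The 95% intervals are exact and cover counting error only, not the spread between mice. A ratio is the dKO level over the Ctrl level, and a gene was counted as past the fold at 1.5-fold or more in either direction, if it had at least 100 UMIs in the class over both libraries. A level per class does not separate fewer expressing cells from less RNA per cell, so levels of single cells are given where that matters. Levels are compared between cells for 1 gene, not between genes, because gene length was not taken into account.

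After filtering, 4010 Ctrl and 3080 dKO cells were kept, at medians of 7880 and 7806 UMIs, and 7 barcodes occurred in both libraries. Classes were named from marker genes and are written as "like". FAP-like cells (fibro/adipogenic progenitors, the matrix-producing stroma of muscle) were 27.3% of the Ctrl library and 37.3% of the dKO library by cell number. MO/MP-like cells (monocytes and macrophages) were 29.5% and 31.0%, EC-like cells (endothelium) 11.6% and 5.81%, and MuSC-like cells 117 and 30 cells. A further cluster led by Fcna, Cd163 and Ccl8 was enriched for 9 of 10 MO/MP markers (at least 2-fold and in at least 10% of its cells) but had Lyve1, a marker of the lymphatic list, among its leading genes and no MO/MP marker there. It is called the Fcna+ Cd163+ cluster and was kept apart, with 240 Ctrl and 178 dKO cells. The 6 mast cell markers summed to 634 CPM in Ctrl and 679 CPM in dKO there. The highest sum in the other compared classes was 49.4 CPM, in Ctrl cycling MO/MP-like cells. Which cells of the cluster carried these markers was not tested. Yy1 itself had 369 UMIs in Ctrl and 3 in dKO MuSC-like cells, a ratio of 0.0304 (0.00623 to 0.0894), while its ratio in the other classes lay between 0.676 and 1.26. The libraries thus went with their labels.

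Each member had its own pattern over the 13 classes. In both libraries Gas6 was highest in the Fcna+ Cd163+ cluster, Mfge8 in SMC/pericyte-like cells (smooth muscle and pericytes) and Axl in FAP-like cells. Mertk was highest on average in the Fcna+ Cd163+ cluster and EC-like cells, whose ranges over the libraries overlap, with SMC/pericyte-like and MO/MP-like cells next, and Tyro3 was found in the stroma at a low level. Lymphoid cells held few of these transcripts: Gas6, Mertk and Pros1 had 0 UMIs in B cell-like cells of both libraries. For Gas6, that count of 0 allows up to 8.29 CPM in Ctrl and 11.6 CPM in dKO B cell-like cells.

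**Figure D1:**
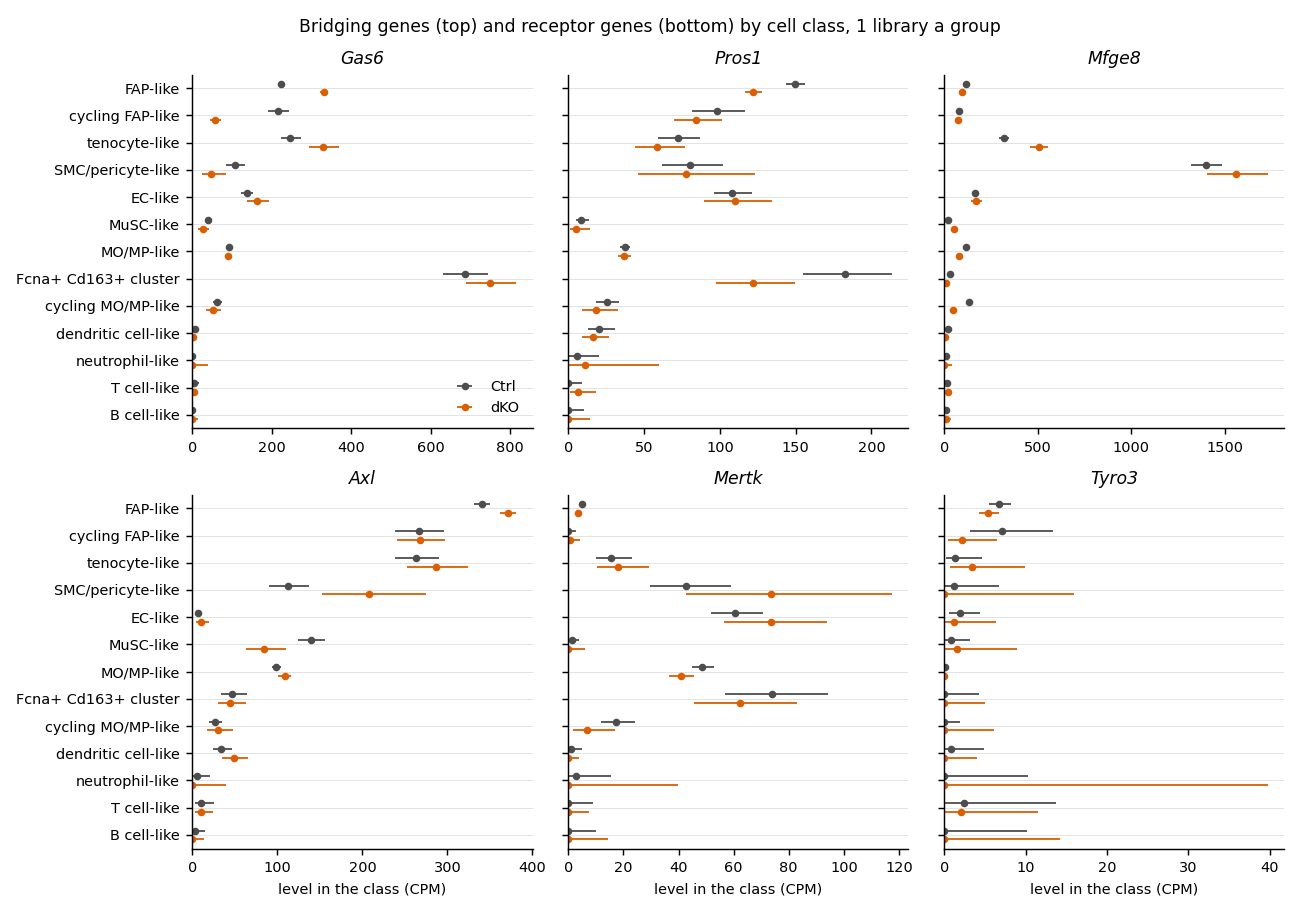
Level of each of the 6 genes in each of 13 cell classes, in CPM of the class total, for the Ctrl and dKO libraries (1 library each); bars are exact 95% Poisson intervals, counting error only. Mfge8 stands highest in SMC/pericyte-like cells (1403 and 1564 CPM), Gas6 in the Fcna+ Cd163+ cluster (686 and 751 CPM) and Axl in FAP-like cells (341 and 371 CPM).

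The bridging gene Gas6 (chromosome 8, 13465374 to 13494490, minus strand, GRCm38) was described first. Its level in the Fcna+ Cd163+ cluster was 686 CPM in Ctrl (632 to 744) and 751 CPM in dKO (690 to 816). The libraries overlapped here, with a ratio of 1.09 (0.973 to 1.23), and without integration of the libraries the log2 ratio turned from 0.13 to -0.052. Tenocyte-like cells (tendon fibroblasts) followed at 247 and 329 CPM and FAP-like cells at 224 and 331 CPM, and the ranges of these classes overlapped. EC-like cells, in which 0 of the 4 members tested were past the fold as against 11.7% of genes, stood below them, at 137 and 163 CPM, and their range overlapped with that of cycling FAP-like cells. MO/MP-like cells held 92.8 and 90.5 CPM. In MuSC-like cells Gas6 was low, at 38.5 CPM (89 UMIs) and 25.9 CPM (16 UMIs). Neutrophil-like cells had 0 UMIs in both libraries, which allows up to 8.42 CPM in Ctrl and 32.4 CPM in dKO.

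Detection in single cells gave the same order. Cells were thinned to 2000 UMIs each, so that depth did not set the share, and shallower cells were left out. Of the Fcna+ Cd163+ cluster, 63.4% of 145 Ctrl cells and 71.9% of 128 dKO cells carried a Gas6 UMI, with 95 and 50 cells left out. The share was 32.4% of 1032 and 35.5% of 1094 FAP-like cells, and 14.4% of 1129 and 13.1% of 891 MO/MP-like cells. Unthinned, the shares were 60% and 70.2% in the Fcna+ Cd163+ cluster at medians of 2581 and 3065.5 UMIs, and 67.6% and 68.4% in FAP-like cells at medians of 11742 and 11870 UMIs. In Ctrl the unthinned share of the deeper FAP-like cells was thus the higher. B cell-like cells served as background, with 0 of 97 Ctrl and 0 of 71 dKO cells, which allows up to 3.09% and 4.23%. Their median depths were 2317.5 and 2556 UMIs. The Gas6 share in MO/MP-like cells was thus above that in B cell-like cells.

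FAP-like cells held most Gas6 transcripts, 51.2% of those in Ctrl (3307 UMIs) and 72.5% of those in dKO (5072 UMIs). The dKO level was 1.48-fold the Ctrl level (1.42 to 1.55), with a log2 ratio of 0.57 that was higher than that of 97.2% of the 10249 genes tested there. The median of those genes was -0.06. This was just under the 1.5-fold rule, so 0 of the 6 members were past it in FAP-like cells, where 5.7% of genes were. Other processing moved Gas6 over it: the log2 ratio, against 0.58 for 1.5-fold, was 0.66 at a clustering resolution of 0.4, 0.67 with all variable genes, and 0.63 relative to the median gene. Tenocyte-like cells had a ratio of 1.34 (1.14 to 1.56).

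The dKO excess of Gas6 was uneven across FAP-like clusters. Each is named here by its leading gene. In the cluster led by Col6a6, Gas6 was 268 CPM in Ctrl (255 to 282) and 526 CPM in dKO (504 to 548), a ratio of 1.96 (1.83 to 2.09). Gas6 was the 1 member past the fold among 4 tested in that cluster, where 6.81% of genes were, and its log2 ratio of 0.97 was 0.99 without the cell with most Gas6 UMIs in each library. In that cluster the 8 myocyte markers summed to 66.2 CPM in Ctrl and 17.7 CPM in dKO (1 higher in dKO). The 7 neutrophil markers summed to 30.4 and 5.23 CPM (2 higher) and the 8 cell cycle markers to 32.0 and 13.6 CPM (0 higher). The 10 MuSC markers stood higher, at 296 and 400.2 CPM (6 higher). Their part in the Gas6 difference was not tested. The cluster led by C7 had the highest Gas6 level among FAP-like cells, 417 CPM in Ctrl and 540.1 CPM in dKO, a ratio of 1.29 (1.19 to 1.41). The cluster led by Cxcl5 had 131 and 171 CPM, a ratio of 1.30 (1.19 to 1.43). Only the cluster led by Cxcl13 went the other way among these 4, from 107 to 81.1 CPM, a ratio of 0.756 (0.593 to 0.963). Whether the ratios differ between clusters was not tested, since each rests on 1 library per group.

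**Figure D2:**
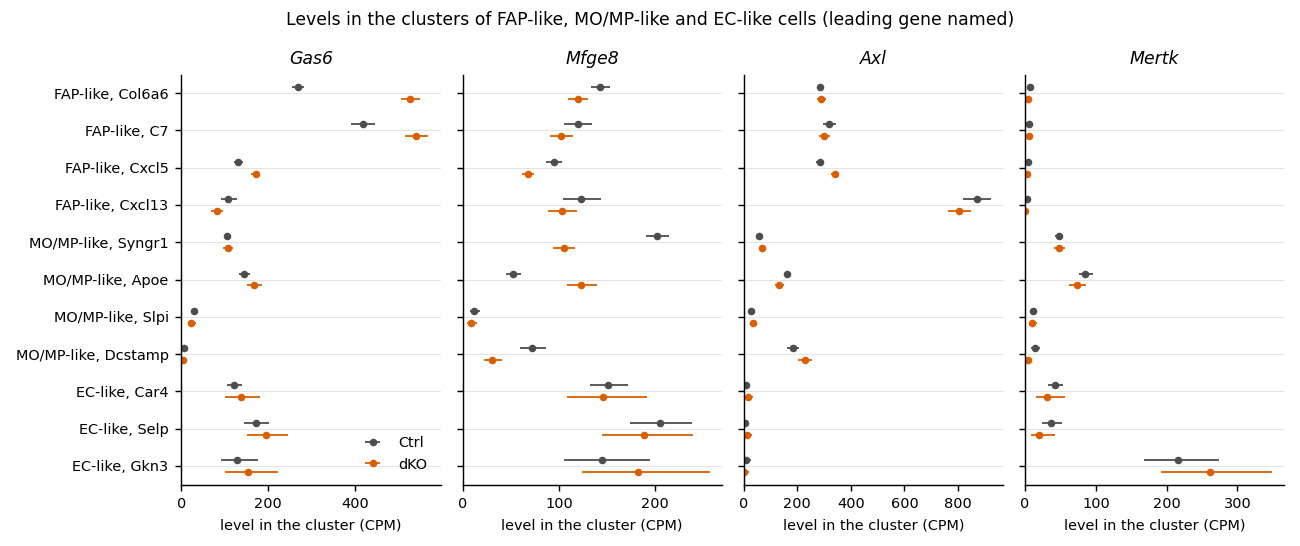
Levels of the member genes, in CPM of the cluster total, in the clusters of FAP-like, MO/MP-like and EC-like cells, each named by its leading gene, for the Ctrl and dKO libraries; bars are exact 95% Poisson intervals, counting error only. Gas6 is 268 and 526 CPM in the Col6a6-led cluster, and Axl 870 and 805 CPM in the Cxcl13-led cluster.

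Gas6 was also read in single FAP-like cells. A Gas6 level of at least 50 CPM was reached by 63.9% of Ctrl and 64.8% of dKO cells, within counting error of each other. The dKO share was higher at 200 CPM or more, with 36.8% of cells in Ctrl (33.9 to 39.7) and 44.0% in dKO (41.1 to 46.9), and at 500 CPM or more stood 14.7% and 24.9%. At 1000 CPM or more stood 51 of 1095 cells in Ctrl (4.66%, 3.49 to 6.08) and 134 of 1148 in dKO (11.7%, 9.87 to 13.7). These cells held 28.7% of the Gas6 UMIs of Ctrl FAP-like cells and 47.9% of those in dKO. The cells were picked by their Gas6 level, so these shares are a description. The median cell had 115 CPM in Ctrl and 155 CPM in dKO, and the highest cell had 4516 and 4800 CPM. At 2000 CPM or more were 14 Ctrl cells (1.28%, 0.701 to 2.14) and 28 dKO cells (2.44%, 1.63 to 3.51), whose intervals overlap. In the Col6a6-led cluster, cells at 1000 CPM or more were 16 of 419 (3.82%) and 56 of 347 (16.1%), and in the C7-led cluster 30 of 282 (10.6%) and 65 of 335 (19.4%). The median cell had 175 and 355 CPM in the Col6a6-led cluster and 213 and 272 CPM in the C7-led cluster. In the Cxcl5-led cluster the median cell was at 53.0 and 44.4 CPM. At that cluster's median of 21134.5 UMIs per cell, such levels rest on very few UMIs, so these medians do not resolve a difference. Its 4 Ctrl and 13 dKO cells at 1000 CPM or more held 17.0% and 34.1% of the Gas6 UMIs.

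**Figure D3:**
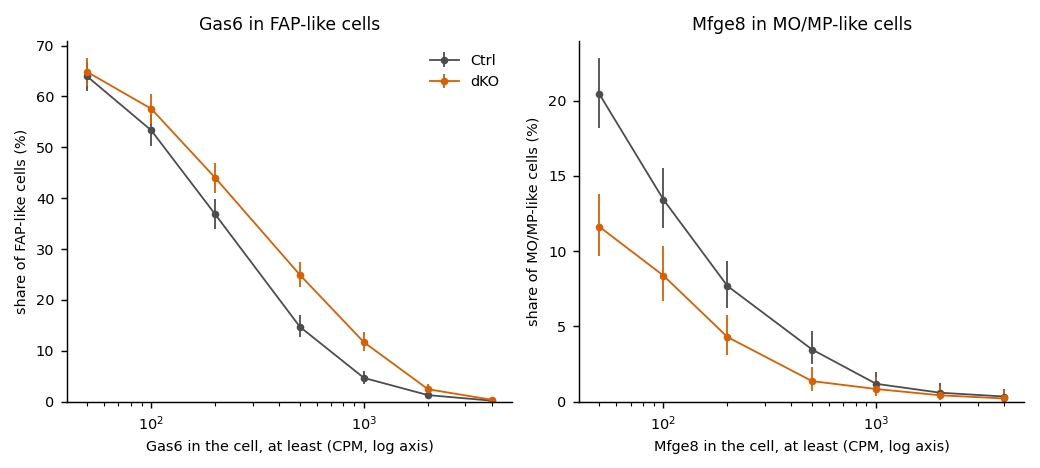
Share of cells, in percent, at or above a given level of a member gene (CPM per cell, log axis), for Ctrl and dKO cells. For Gas6 in FAP-like cells the libraries are close at 50 CPM (63.9% and 64.8%) and apart at 200 CPM (36.8% and 44.0%) and 500 CPM (14.7% and 24.9%); for Mfge8 in MO/MP-like cells the Ctrl share is higher at 50 CPM (20.4% and 11.6%).

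Cycling FAP-like cells were few, 39 in Ctrl and 38 in dKO. Gas6 was 216 CPM in Ctrl (276 UMIs) and 56.8 CPM in dKO (77 UMIs), a ratio of 0.263 (0.202 to 0.340). Gas6 was the 1 member of 4 tested past the fold, where 11.9% of genes were. In Ctrl, 1 cell held 63.4% of the Gas6 UMIs, and without the top cell of each library the log2 ratio was -0.70 in place of -1.93. The 10 SMC/pericyte markers summed to 557 and 270.2 CPM in this class (2 higher in dKO, 2 at 0 UMIs in each library), and the 10 EC markers to 47.0 and 7.38 CPM (1 higher, 2 and 5 at 0 UMIs). Their part in the Gas6 difference was not tested.

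Pros1, the other TAM ligand (chromosome 16, 62854307 to 62929346, plus strand, GRCm38), also circulates as an anticoagulant cofactor. Its level was 183 CPM in Ctrl and 122 CPM in dKO cells of the Fcna+ Cd163+ cluster, and 149 and 122 CPM in FAP-like cells, and the ranges of these classes overlapped. EC-like cells stood below at 108 and 110.1 CPM, and MO/MP-like cells at 37.4 and 36.7 CPM. FAP-like cells held 62.6% of the Pros1 UMIs in Ctrl and 72.2% in dKO.

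In FAP-like cells Pros1 was lower in dKO, with a ratio of 0.815 (0.766 to 0.867) and so not past the fold. The ratio lay below 1 in all 4 FAP-like clusters, from 0.789 in the Col6a6-led to 0.940 in the C7-led cluster, whose interval (0.814 to 1.08) included 1, as did that of the Cxcl13-led cluster (0.680 to 1.05). In the Fcna+ Cd163+ cluster the ratio was 0.665 (0.508 to 0.868), from 156 and 90 UMIs. Pros1 was there the 1 member of 3 tested past the fold, where 12.5% of genes were. That call sat at the edge of the rule and was lost under 5 of 8 alternatives, where the log2 ratio was between -0.56 and -0.35 in place of -0.59. In the EC-like cluster led by Selp, a gene of activated venular endothelium, Pros1 was 147 CPM (117 UMIs) and 95.5 CPM (33 UMIs), a ratio of 0.650 (0.428 to 0.964). Pros1 was the 1 member of 3 tested past the fold there, where 12.3% of genes were, and averaging each cell's own CPM ended this call at a log2 ratio of -0.53. In the Selp-led cluster the 10 SMC/pericyte markers summed to 1520.5 CPM in Ctrl and 753 CPM in dKO (0 higher in dKO, 1 and 6 at 0 UMIs), the 5 erythroid markers to 237 and 0 CPM (1 and 5 at 0 UMIs) and the 10 MuSC markers to 699 and 1074 CPM (2 higher, 6 and 7 at 0 UMIs). Their part in the Pros1 difference was not tested.

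Mfge8, the bridge to integrins (chromosome 7, 79133768 to 79149060, minus strand, GRCm38), was led by SMC/pericyte-like cells. Their level was 1403 CPM in Ctrl (1323 to 1486) and 1564 CPM in dKO (1407 to 1733). The libraries did not differ beyond counting error, at a ratio of 1.11 (0.988 to 1.26), and the log2 ratio of 0.16 became -0.12 on averaging the CPM of single cells. Mfge8 was spread over most of these cells: 73 of 107 Ctrl cells (68.2%) and 27 of 38 dKO cells (71.1%) were at 1000 CPM or more. Thinned, 87.9% of 99 Ctrl and 93.5% of 31 dKO cells carried a UMI, against 1.03% of 97 and 2.82% of 71 B cell-like cells. Unthinned, these shares were 97.2% and 94.7% in SMC/pericyte-like cells at medians of 6730 and 5549.5 UMIs, and 2.82% and 3.45% in B cell-like cells.

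Tenocyte-like cells came next in Mfge8, at 319 CPM in Ctrl (496 UMIs) and 507 CPM in dKO (449 UMIs). The ratio was 1.59 (1.39 to 1.81), and Mfge8 was the 1 member of 4 tested past the fold, where 6.42% of genes were. Averaging each cell's own CPM gave a log2 ratio of 0.54 and keeping all doublets 0.50, both under the fold. In the same class the 10 SMC/pericyte markers summed to 288 CPM in Ctrl and 457 CPM in dKO, 4 of them higher in dKO and 1 and 2 at 0 UMIs, and their part in the Mfge8 difference was not tested. In FAP-like cells the direction was the other: 119 and 93.2 CPM, a ratio of 0.785 (0.731 to 0.842). EC-like cells were at 167 and 170 CPM, within counting error of each other.

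**Figure D4:**
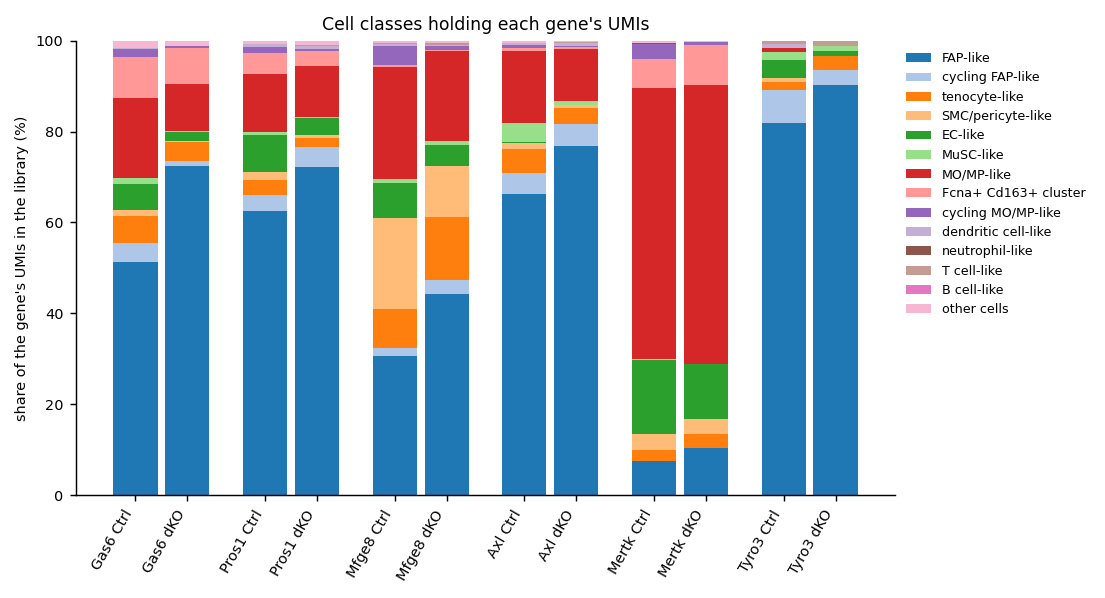
Share of each member gene's UMIs, in percent of the library, held by each cell class in Ctrl and dKO. FAP-like cells hold most Gas6 (51.2% and 72.5%), Pros1 (62.6% and 72.2%), Axl (66.4% and 76.8%) and Tyro3 (81.8% and 90.2%), and MO/MP-like cells most Mertk (59.7% and 61.3%).

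In MO/MP-like cells Mfge8 was 116 CPM in Ctrl (1416 UMIs) and 80.6 CPM in dKO (637 UMIs). The ratio was 0.696 (0.633 to 0.765), so 0 of the 5 members tested were past the fold, where 7.16% of genes were. Mfge8 was past it under 3 of 8 alternatives, with log2 ratios of -0.75 on averaging the CPM of single cells, -0.67 with all doublets kept and -0.74 without the top cell of each library, in place of -0.52. Few cells carried a large part of these transcripts. Cells at 1000 CPM or more were 14 of 1184 in Ctrl and 8 of 955 in dKO, and they held 43.1% and 61.1% of the Mfge8 UMIs. Without them the level was 67.2 and 31.9 CPM. The breadth differed as well, since 50 CPM was reached by 20.4% of the cells in Ctrl (18.2 to 22.9) and 11.6% in dKO (9.66 to 13.8). Thinned, 8.95% of 1129 Ctrl and 5.05% of 891 dKO cells carried a UMI, at unthinned shares of 21.6% and 11.6% and medians of 8861.5 and 7330 UMIs.

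MO/MP-like clusters differed in Mfge8. The cluster led by Syngr1, with Spp1, Gpnmb and Trem2 among its leading genes, held most of it: 202 CPM in Ctrl and 105 CPM in dKO, a ratio of 0.519 (0.457 to 0.588). Mfge8 was the 1 member of 5 tested past the fold there, where 9.96% of genes were. A dKO cell held 37.8% of the UMIs of that library's cluster, and without the top cells the log2 ratio was -1.45 in place of -0.95. The cluster led by Dcstamp had 72.2 and 30.4 CPM, a ratio of 0.422 (0.290 to 0.604), and Mfge8 was the 1 member of 3 tested past the fold, where 9.53% of genes were. In that cluster the 8 cell cycle markers summed to 167 CPM in Ctrl and 69.9 CPM in dKO (1 higher in dKO). The 10 MuSC markers summed to 180 and 353 CPM (7 higher, 4 and 3 at 0 UMIs), and the part of either list was not tested. The cluster led by Apoe stood opposite, at 52.2 and 123 CPM and a ratio of 2.37 (1.95 to 2.88), as the 1 member of 5 tested past the fold, where 10.1% of genes were. There, 1 dKO cell held 51.9% of the UMIs, and without the top cells the log2 ratio was 0.34 in place of 1.24, under the fold. The 4 dKO cells at 1000 CPM or more held 73.7% of them, and without these 4 cells the level was 33.5 CPM in dKO, below the 52.2 CPM of Ctrl, which had 0 such cells. Cycling MO/MP-like cells had 131 CPM (244 UMIs) and 48.3 CPM (29 UMIs), a ratio of 0.369 (0.242 to 0.543), the 1 member of 2 tested past the fold, where 15.2% of genes were. Without the top cell of each library their log2 ratio was -2.30, and with all doublets kept -0.77, in place of -1.44. The 7 neutrophil markers summed to 17980 CPM in Ctrl and 382 CPM in dKO in this cycling class, with 0 of them at 0 UMIs in either library. The 10 EC markers were lower in dKO as well, at 144 and 23.3 CPM (0 higher, 0 and 4 at 0 UMIs). Other lists stood higher in dKO: the 6 T cell markers in the files summed to 26.9 and 247 CPM (6 higher) and the 10 dendritic cell markers to 2288 and 3815 CPM (8 higher), with 0 at 0 UMIs in either list. Their part in the Mfge8 difference was not tested.

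Axl, a TAM receptor that macrophages and fibroblasts express and whose chief ligand is Gas6, lies on chromosome 7 (25757273 to 25788705, minus strand, GRCm38). FAP-like cells were highest at 341 CPM in Ctrl (331 to 350.4) and 371 CPM in dKO (362 to 381). The ratio was 1.09 (1.05 to 1.13), and FAP-like cells held 66.4% and 76.8% of all Axl UMIs. Tenocyte-like cells (263 and 287 CPM) and cycling FAP-like cells (266 and 268 CPM) followed, with overlapping ranges. MO/MP-like cells had 98.6 and 108 CPM, a ratio of 1.10 (1.01 to 1.20). EC-like cells had 17 and 9 UMIs, 6.41 and 10.3 CPM, so Axl was near absent there.

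The stroma was not uniform in Axl. The FAP-like cluster led by Cxcl13, which has Pi16 and Dpp4 among its leading genes, stood above the rest at 870 CPM in Ctrl (819 to 923) and 805 CPM in dKO (764 to 849), while the other FAP-like clusters lay between 284 and 339.8 CPM. Its ratio was 0.926 (0.855 to 1.00). Thinned, 79.4% of 126 Ctrl and 76.0% of 154 dKO cells of that cluster carried an Axl UMI, against 1.03% of 97 and 0 of 71 B cell-like cells. Unthinned, it was 96.3% and 97.5% at medians of 9194.5 and 11075 UMIs. This was also the FAP-like cluster with the lowest Gas6 (107 and 81.1 CPM), so the cluster highest in the receptor was lowest in its ligand, in both libraries. Among MO/MP-like clusters Axl was 183 and 227 CPM in the Dcstamp-led cluster, a ratio of 1.24 (1.05 to 1.46), and 162 and 132 CPM in the Apoe-led cluster, a ratio of 0.816 (0.704 to 0.943).

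The class of MuSC-like cells was led by Mymx, Gal, Chrng and Myog, and stem cells were not separated from their progeny in it. Its 10 MuSC markers summed to 3412 CPM in Ctrl and 4053 CPM in dKO. MuSC-like cells, the class in which Yy1 was lost, had 139 CPM of Axl in Ctrl (125 to 155, 322 UMIs) and 84.0 CPM in dKO (62.8 to 110.2, 52 UMIs). The ratio was 0.603 (0.441 to 0.810). Axl was the 1 member of 2 tested past the fold, where 20.9% of genes were, so a ratio of this size was common in this class. In dKO, 10 of the 30 cells held 98.1% of the Axl UMIs. With a cell filter of 200 genes and 1000 UMIs the log2 ratio was -0.57 in place of -0.73, under the fold. Other marker lists differed in the same cells: the 8 myocyte markers summed to 2354 CPM in Ctrl and 4064 CPM in dKO (5 higher in dKO), the 12 FAP markers to 534 and 246 CPM (5 higher), and the 8 cell cycle markers to 954 and 611 CPM (1 higher). The 5 erythroid markers summed to 0.433 and 85.6 CPM (3 higher, 4 and 2 at 0 UMIs) and the 7 neutrophil markers to 32.9 and 98.6 CPM (4 higher, 3 and 2 at 0 UMIs). Their part in the Axl difference was not tested. Mfge8 had 47 and 32 UMIs there (20.3 and 51.7 CPM), too few in sum to be counted under the rule.

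SMC/pericyte-like cells went the other way in Axl, at 112 CPM (92 UMIs) and 207 CPM (48 UMIs). The ratio was 1.85 (1.28 to 2.65), the 1 member of 2 tested past the fold, where 18.2% of genes were. The 10 EC markers summed to 2746 CPM in Ctrl and 1417 CPM in dKO in this class (1 higher in dKO). The 10 markers of the MuSC list summed to 745 and 1343 CPM (3 higher, 4 and 7 at 0 UMIs), so that rise rests on few genes. Des is in both the MuSC and the SMC/pericyte list. The part of these markers in the Axl difference was not tested.

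The promoter of Axl is shown because Axl was past the fold in the cells that lost the transcription factor Yy1. It spans chr7:25788684-25788983 on the minus strand (RefSeq, GRCm38.p6), from 250 bases before to 50 after the gene start. Capitals mark GGGCGG, the GC box, of which a search of both strands found 2.

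Axl promoter: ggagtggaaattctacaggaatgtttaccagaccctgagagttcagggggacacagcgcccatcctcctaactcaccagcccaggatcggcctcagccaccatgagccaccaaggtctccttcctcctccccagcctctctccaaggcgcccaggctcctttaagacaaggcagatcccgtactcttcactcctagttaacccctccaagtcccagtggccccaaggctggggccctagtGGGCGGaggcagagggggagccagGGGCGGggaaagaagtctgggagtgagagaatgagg

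A GC box on either strand was present in 35.7% of 32851 promoters of this length. The letters CCATNTT, the core that Yy1 is known to bind, were searched on both strands, do not overlap the GC box and were present in 16.1% of promoters. They were found in 0 of the 6 members' promoters, which says only that the letters are not in this window.

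Mertk, the receptor most tied to engulfment by resident macrophages, lies on chromosome 2 (128698956 to 128802894, plus strand, GRCm38). The Fcna+ Cd163+ cluster (73.8 and 62.1 CPM), EC-like cells (60.7 and 73.4 CPM), SMC/pericyte-like cells (42.6 and 73.4 CPM) and MO/MP-like cells (48.7 and 40.7 CPM) had overlapping ranges, each with its neighbour, while the Fcna+ Cd163+ cluster and EC-like cells stood above MO/MP-like cells in both libraries. MO/MP-like cells held most UMIs, 59.7% in Ctrl (595 UMIs) and 61.3% in dKO (322 UMIs). Their ratio was 0.837 (0.729 to 0.960), not past the fold. FAP-like cells stood far lower at 5.14 and 3.53 CPM, from 76 and 54 UMIs. Tenocyte-like cells had 15.5 and 18.1 CPM, from 24 and 16 UMIs.

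Within MO/MP-like cells Mertk was highest in the Apoe-led cluster, at 85.1 and 73.5 CPM, a ratio of 0.864 (0.707 to 1.05). The Syngr1-led cluster had 48.1 and 48.2 CPM, equal within counting error. The Slpi-led cluster, which has Ly6c2 among its leading genes, had 10.6 and 10.1 CPM. In the Dcstamp-led cluster Mertk was 13.8 CPM (21 UMIs) and 4.15 CPM (6 UMIs), too few UMIs to enter the counts of genes past the fold, while Axl was 183 and 227 CPM, its highest among the MO/MP-like clusters. In endothelium Mertk was highest in the cluster led by Gkn3, with the arterial genes Gja5 and Bmx among its leading genes, at 216 CPM (67 UMIs) and 262 CPM (46 UMIs), a ratio of 1.21 (0.813 to 1.79). Few cells carried much of it: 5 of 66 Ctrl and 3 of 32 dKO cells at 1000 CPM or more held 32.8% and 58.7% of the UMIs, and without them the level was 152 CPM in Ctrl and 121 CPM in dKO, the other direction. Thinned, 34.5% of 55 Ctrl and 24.1% of 29 dKO cells of this cluster carried a Mertk UMI, and unthinned 40.9% and 40.6% at medians of 4176 and 4107.5 UMIs. The share was 9.48% and 8.98% of thinned MO/MP-like cells, and 0 of 97 and 0 of 71 B cell-like cells. The Car4-led and Selp-led EC-like clusters lay between 20.3 and 42.03 CPM, below it in both libraries.

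Tyro3 (chromosome 2, 119797733 to 119818104, plus strand, GRCm38) is best known as the TAM receptor of the nervous system. It had 121 UMIs in Ctrl and 92 in dKO, the fewest of the members. FAP-like cells held 99 and 83 of these, at 6.70 and 5.42 CPM and a ratio of 0.810 (0.597 to 1.09). MO/MP-like cells had 1 UMI in Ctrl and 0 in dKO among 1184 and 955 cells, and the Fcna+ Cd163+ cluster had 0 in both. For dKO MO/MP-like cells the count of 0 allows up to 0.380 CPM. No difference of Tyro3 between the libraries was detectable at this depth.

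**Figure D5:**
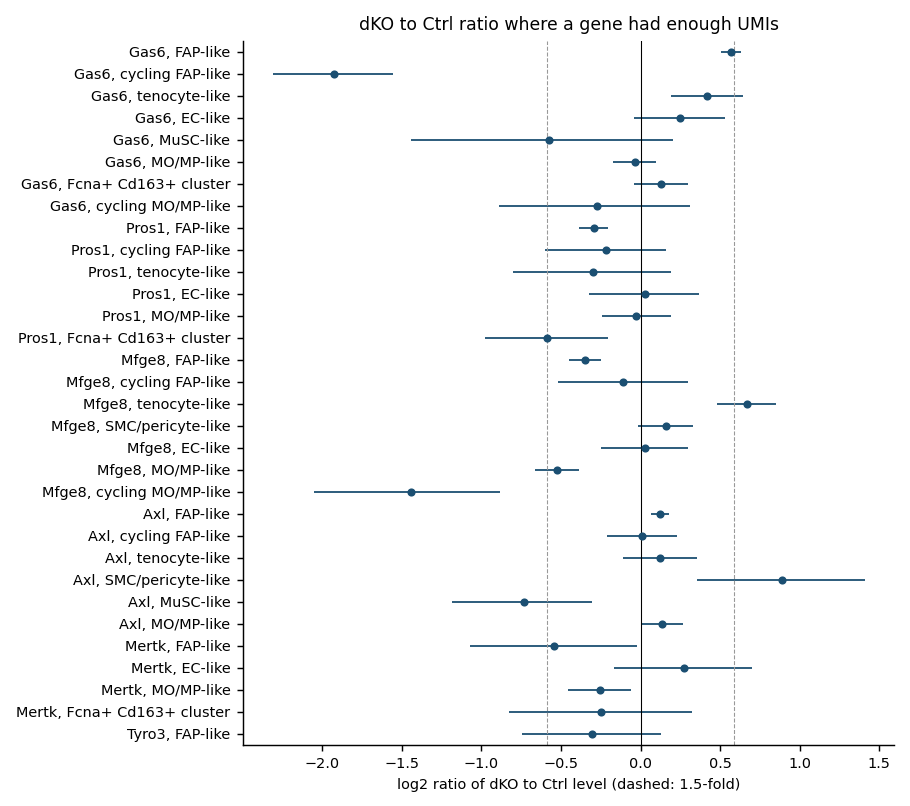
dKO to Ctrl ratio of each member gene by cell class (log2 axis), with exact 95% intervals that cover counting error only; the lines mark 1.5-fold in either direction. Gas6 lies at 1.48 in FAP-like cells, Axl at 0.603 in MuSC-like and 1.85 in SMC/pericyte-like cells, and Mfge8 at 1.59 in tenocyte-like cells.

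Over whole libraries the ratio depends on both the level within classes and the mix of classes. Gas6 was 158 CPM in Ctrl and 230.0 CPM in dKO, a ratio of 1.45 (1.40 to 1.503). With the dKO class levels weighted by the Ctrl class totals, the ratio was 1.24. Axl was 186 and 243 CPM, a ratio of 1.31 (1.27 to 1.35) that became 1.08 with Ctrl weights. Mertk was 24.4 and 17.3 CPM, a ratio of 0.706 (0.634 to 0.786) that became 0.904, and Mfge8 was 141 and 106 CPM, a ratio of 0.754 (0.722 to 0.787) that became 0.913. For Axl, Mertk and Mfge8 most of the library-wide difference thus went with the mix of classes, and for Gas6 a part of it. Pros1 (86.6 and 84.9 CPM) had a ratio of 0.981 (0.932 to 1.03) that became 0.854 with Ctrl weights.

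Ligand and receptor were also counted in the same thinned cells. Of FAP-like cells with a Gas6 UMI, 41.0% of 334 in Ctrl and 42.8% of 388 in dKO also carried an Axl UMI, against 46.7% and 47.5% of all FAP-like cells. In MO/MP-like cells, 14.7% of 163 and 16.2% of 117 Gas6-positive cells carried a Mertk UMI, against 9.48% and 8.98% of all. In FAP-like cells Gas6 and Mertk occurred together in 0 Ctrl and 4 dKO cells.

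Other genes of efferocytosis were read from 7 lists with 61 genes, ordered by role. In FAP-like cells 44 of the 61 had enough UMIs. Of these, 1 was past the fold upward and 3 downward, against 2.65% and 3.04% of all genes, and their median log2 ratio was -0.07 beside -0.06 for all genes. Cd36, a scavenger receptor that helps bind apoptotic cells, was 7.72 and 2.16 CPM, a ratio of 0.280 (0.184 to 0.415). The 10 EC markers summed to 19.2 and 8.496 CPM in FAP-like cells, 0 of them higher in dKO, and the 8 myocyte markers to 43.0 and 15.5 CPM, with 0 at 0 UMIs in either list. Their part in the Cd36 difference was not tested. Abcg1, a cholesterol exporter, was 10.3 and 6.47 CPM, a ratio of 0.629 (0.483 to 0.816). Pilra, an inhibitory receptor, was 5.48 and 3.33 CPM, a ratio of 0.608. These genes were low in FAP-like cells. Of the engulfment signalling list 0 of 8 genes were past the fold, and Rac1, the GTPase that drives closure of the phagocytic cup, had 249.9 and 240.1 CPM. Vkorc1, which recycles the vitamin K needed to mature Gas6 and Pros1, was 294 and 235 CPM, a ratio of 0.799 (0.764 to 0.835). Socs3, a feedback inhibitor of cytokine signalling, had 343 and 389.7 CPM. The other phosphatidylserine receptors had 0 of 11 genes with enough UMIs.

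In MO/MP-like cells 47 of the 61 genes were tested, 2 were past the fold upward and 2 downward, against 4.35% and 2.81% of all genes, and the median log2 ratio was -0.12 beside 0.00 for all genes. Stab1, a phosphatidylserine receptor of tissue macrophages, was 157 CPM in Ctrl and 80.2 CPM in dKO, a ratio of 0.512 (0.468 to 0.561). It was the only 1 of 5 tested in the list of other phosphatidylserine receptors to pass. Cd36 was 894 and 520.4 CPM, a ratio of 0.582 (0.561 to 0.603), the 1 of 10 in the list of integrins and other engulfment receptors. The genes that stood higher were both feedback inhibitors: Socs3 at 71.9 and 161 CPM, a ratio of 2.24 (2.06 to 2.45), and Socs1 at 7.03 and 11.6 CPM, a ratio of 1.65 (1.22 to 2.25). These were 2 of 6 tested in the list of ligand maturation, receptor shedding and feedback. Cargo handling had 0 of 10 past the fold, among them the lysosomal Lamp1 (1652 and 1355 CPM) and the cholesterol exporter Abca1 (325 and 292 CPM). The do-not-eat-me list had 0 of 4, with Cd47 at 281 and 299.6 CPM and its receptor Sirpa at 413 and 382 CPM. Phosphatidylserine exposure and flipping had 0 of 6, with the flippase subunit Tmem30a at 119 and 111 CPM and the scramblase Ano6 at 80.2 and 83.3 CPM. Engulfment signalling had 0 of 6, with Rac1 at 442 and 399.6 CPM. Marker lists of other cells differed in MO/MP-like cells too. The 7 neutrophil markers summed to 196 CPM in Ctrl and 95.6 CPM in dKO (1 higher in dKO), the 12 FAP markers to 460.1 and 657 CPM (1 higher), the 10 MuSC markers to 252 and 389.7 CPM (6 higher, 1 and 2 at 0 UMIs) and the 8 cell cycle markers to 108 and 74.5 CPM (2 higher). Their part in these differences, and in that of Mfge8 in MO/MP-like cells, was not tested.

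In the Fcna+ Cd163+ cluster 24 genes of the lists were tested, 1 past the fold upward and 3 downward, against 7.57% and 4.92% of all genes. Stab1 was again lower, at 420.5 CPM in Ctrl (359 UMIs) and 182 CPM in dKO (135 UMIs), a ratio of 0.434 (0.353 to 0.530). Lrp1, an engulfment receptor for calreticulin, was 160.5 and 95.9 CPM, a ratio of 0.598 (0.442 to 0.802), and Becn1, an autophagy gene, was 77.3 and 47.3 CPM, a ratio of 0.612. Calr, calreticulin itself, was higher at 608 and 981 CPM, a ratio of 1.61 (1.44 to 1.81). Marker lists of other cells differed in this cluster as well. The 12 FAP markers summed to 519 CPM in Ctrl and 888 CPM in dKO (2 higher in dKO), the 7 lymphatic EC markers to 259 and 529.5 CPM (3 higher, 4 at 0 UMIs in each library), the 10 MuSC markers to 617 and 1047 CPM (4 higher) and the 5 erythroid markers to 77.3 and 299 CPM (4 higher). The 10 EC markers summed to 85.5 and 33.8 CPM, and the 7 neutrophil markers to 148 and 56.7 CPM. Their part in these differences, and in that of Pros1 in this cluster, was not tested. In EC-like cells 31 genes were tested, 1 past the fold upward and 1 downward, against 4.55% and 7.13% of all genes. There Cd24a, a do-not-eat-me signal, was 55.4 and 117 CPM, a ratio of 2.11 (1.62 to 2.74), and Abcg1 was 51.6 and 25.2 CPM, a ratio of 0.489 (0.297 to 0.770). In EC-like cells the 10 MuSC markers summed to 425 CPM in Ctrl and 831 CPM in dKO (2 higher in dKO, 2 and 6 at 0 UMIs). The 10 SMC/pericyte markers summed to 979.6 and 648 CPM (1 higher, 0 and 1 at 0 UMIs), the 8 myocyte markers to 58.0 and 11.5 CPM (1 higher, 1 and 5 at 0 UMIs) and the 5 erythroid markers to 82.9 and 32.1 CPM (1 higher, 1 and 2 at 0 UMIs). Their part in the Cd24a and Abcg1 differences was not tested. Cd36, which endothelium uses for fatty acid uptake, was 2002 and 1611 CPM and not past the fold. Stab1 was 73.1 and 66.5 CPM in EC-like cells, a ratio of 0.910 (0.667 to 1.23), so its lower dKO level was seen in MO/MP-like cells and the Fcna+ Cd163+ cluster but was not detectable here.

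The patterns of the members over classes were set beside those of all other genes, as a description over 26 points (13 classes in 2 libraries) that share library and depth. Levels entered as log2(CPM + 1), for genes with at least 200 UMIs. Of 11443 genes compared, Wls (Pearson r = 0.908), Tmem159 (0.905) and Serpinb6a (0.903) were most like Gas6. Plod1 (0.893), Papss2 (0.892) and Itga5 (0.890) were most like Pros1, and Pgrmc1 (0.870), Acyp2 (0.869) and 2310022B05Rik (0.847) most like Mfge8. For the receptors these were Plxdc2 (0.937), Sec24d (0.895) and Nenf (0.894) with Axl, Cracr2b (0.935), Glul (0.866) and Mtus1 (0.856) with Mertk, and Fhl2 (0.875), B430319G15Rik (0.851) and Tspan11 (0.847) with Tyro3. Among the members, Gas6 and Pros1 were most alike, at 0.845. Axl and Mertk had an r of 0.278, and Mertk and Tyro3 had -0.212.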

How the data were processed

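Single cell RNA-seq of hind limb muscle cells was analysed in 2 libraries, Ctrl and dKO, 1 per group. The authors deposited UMI counts per gene and cell, not normalized, for 4527 and 3483 barcodes. Their file headers name Cell Ranger 3.0.2, whereas the submitters' processing notes name Cell Ranger 7.0.0, Seurat 4.3.0, Cufflinks and mm10. The counts hold 0 mitochondrially encoded genes. Library totals were 45556596 and 33815155 UMIs.

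The member genes, marker lists and pathway lists were chosen with earlier results of these data known. Cells with at least 500 genes were kept (192 and 154 removed). Scrublet (scanpy 1.11.5, 30 principal components) called only 8 and 21 doublets by its own threshold, so those ranking in the top 7.5% by score were taken out of each library instead (325 and 249). At the limiting score 33 of 52 tied Ctrl cells and 9 of 29 tied dKO cells were removed, in barcode order. Libraries were integrated with Seurat 5.3.0 (R 4.3.3) anchors on 2000 variable genes, leaving out member and pathway genes, with 40 dimensions, and clustered at a resolution of 0.8 into 23 clusters.

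Clusters were named from 17 marker lists (138 genes, 4 without an entry). The 10 leading genes were ranked by their CPM over that of the remaining cells, given detection in 20% of the cluster and 50 CPM. A name needed 3 markers enriched 2-fold and in 10% of the cells. The naming of cycling clusters (6 cycling markers), a rule on clusters of low UMIs and the separate Fcna+ Cd163+ cluster were settled after the clusters had been seen. Classes under 20 cells in a library (lymphatic EC-like, 17 and 13 cells, and an unnamed cluster, 23 and 13 cells) were not compared. Intervals are exact Poisson for CPM, exact conditional binomial for ratios and Clopper-Pearson for shares (Python 3.11.15, scipy 1.17.1, numpy 2.4.6). Only the ratio intervals and the fold rule were run on simulated Poisson counts, in FAP-like, MO/MP-like and EC-like cells. Such counts hold no spread between mice. Cells are not replicates, so no test was run. All member genes were named. Of each pathway list, genes past 1.5-fold with at least 100 UMIs (at most 4, by UMIs) or else the 2 with most UMIs were eligible in FAP-like, MO/MP-like and EC-like cells, and in the Fcna+ Cd163+ cluster by the same rule. The 3 genes most like each member were named. A pathway gene past the fold in FAP-like cells is not reported here. Positions come from GENCODE M21, matched by symbol (24458 symbols, 97.9%). Cells at 1000 CPM or more, and calls outside the planned classes, were examined after seeing the data.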

Additional observations from a re-analysis of the deposited data

Results flagged for a closer look

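Of the members past 1.5-fold with an interval on 1 side of no difference, Mfge8 and Axl each stood higher in dKO in 1 class and lower in another. The log2 dKO to Ctrl ratio of Mfge8 was 0.67 in tenocyte-like cells and -1.44 in cycling MO/MP-like cells. That of Axl was 0.89 in SMC/pericyte-like cells and -0.73 in MuSC-like cells. Mfge8 in tenocyte-like cells was under the fold on averaging the CPM of single cells (0.54) and with all doublets kept (0.50), and Axl in MuSC-like cells with a filter of 200 genes and 1000 UMIs (-0.57). Neutrophil markers summed to 17980 CPM in Ctrl and 382 CPM in dKO cycling MO/MP-like cells, and their part was not tested. Each ratio rests on 1 library per group, so the difference between the classes was not tested.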

How the results depend on the processing

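No paired analysis was possible because each group had 1 library. Each value was recomputed under alternatives to clustering, integration, doublet removal, cell filter, scaling and summing, and 0 called values turned direction. Of the main values, 115 stayed within their counting interval and 33 moved out of it. The cause was not tested.

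Averaging each cell's own CPM gave log2 ratios of 0.036 for Axl in FAP-like cells, -0.75 for Mfge8 in MO/MP-like and -0.12 in SMC/pericyte-like cells, and over all cells 0.33 for Axl, 0.42 for Gas6, -0.33 for Mertk and -0.48 for Mfge8. Relative to the median gene they were 0.18 for Axl in FAP-like cells and, over all cells, 0.44 for Axl and 0.59 for Gas6. Gas6 in FAP-like cells was 0.66 at a clustering resolution of 0.4 and 0.67 with all variable genes, and in the Fcna+ Cd163+ cluster -0.052 without integration. With no doublets removed Mfge8 was -0.67 in MO/MP-like cells and -0.49 over all cells, and without the top cell of each library -0.74 in MO/MP-like cells. Pathway genes past the fold numbered 7 with 30 UMIs, 0 with 300 UMIs and 6 with no doublets removed in EC-like cells, and 7 and 0 with 30 and 300 UMIs in FAP-like cells. The FAP-like share of Ctrl UMIs, at resolution 0.4, was 57.5% for Axl, 56.9% for Pros1 and 29.2% for Mfge8. With all variable genes it was 58.2% for Axl and 57.1% for Pros1. With no doublets removed it was 62.7% for Axl, 49.3% for Gas6, 27.9% for Mfge8 and 58.9% for Pros1. With a 200-gene and 1000-UMI filter it was 65.2% for Axl, and the MO/MP-like share of Mertk was 56.3%, or 56.2% with no doublets removed.

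Depth limits Tyro3 in every class, and Mertk, Pros1 and Mfge8 in MuSC-like cells. Class names were rebuilt from markers, and mice within a library could not be told apart.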

Other observations

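The 185 FAP-like cells at 1000 CPM or more of Gas6 were compared with all other FAP-like cells for the genes with the highest CPM ratio, among genes with at least 100 UMIs in them. The cells were chosen after their values were seen, so this is a description with no test. Comp, a matrix gene of cartilage and tendon, led at a ratio of 6.83, with 387 CPM in such Ctrl cells against 53.3 CPM in the others, and 654 against 117 CPM in dKO. Sfrp2, a secreted Wnt modulator, was 1091 against 103 CPM in Ctrl and 583 against 149 CPM in dKO. Clu, an extracellular chaperone, had a ratio of 5.66, Cpxm2 5.16 and Sfrp1 4.58. All 5 were higher in the Gas6-high cells of both libraries. Sfrp1 is also a leading gene of the Col6a6-led cluster, which holds 16 of these 51 Ctrl and 56 of these 134 dKO cells. The C7-led cluster holds more of them, 30 in Ctrl and 65 in dKO. The part of the mix of clusters in these ratios was not tested.

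The 22 MO/MP-like cells at 1000 CPM or more of Mfge8 were led in the same way by Spp1 (osteopontin), at 8779 against 2837 CPM in Ctrl and 15435 against 1438 CPM in dKO. Ctsl, a lysosomal protease, was 9413 against 1972 CPM in Ctrl and 3227 against 1446 CPM in dKO. Gpnmb, a gene of phagocytic macrophages, was 3522 against 1314 CPM and 4069 against 924 CPM. Spp1 and Gpnmb are leading genes of the Syngr1-led cluster, which holds all 14 such Ctrl cells and 4 of the 8 such dKO cells.

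Lymphatic EC-like cells, 17 in Ctrl and 13 in dKO, were too few to compare. They held 40 and 13 Gas6 UMIs (411 and 203 CPM) and 23 and 22 Pros1 UMIs (236 and 344 CPM), but 1 Axl UMI in each library.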
